A study of Mus musculus with 8 samples.

Results

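Mesangial nuclei were followed in a single-nucleus RNA-seq dataset of mouse kidney. A nucleus was counted as mesangial when at least 3 of 5 genes (Piezo2, Gata3, Itga8, Pdgfrb and Art3) each had at least 1 UMI, a unique molecular identifier that stands for 1 captured RNA molecule. The rule also required no UMI of Aqp2 (collecting duct), Flt1 (endothelium), Ak5 or Smoc2 (other stromal cells) and at most 1 UMI of Slc12a3 (distal convoluted tubule). It was applied to QC nuclei, which held 500 genes and 800 UMIs or more, with mitochondrial genes taking no more than 2% of UMIs. It found 179 mesangial nuclei among 81391 QC nuclei. The nuclei were thus chosen by the measured UMIs of these genes, so the levels of the 5 genes and the contrast between mesangial nuclei and all others are given as descriptions, with no test.

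The kidneys came from 8 male C57BL/6J mice, 2 in each of 4 groups, and each mouse gave 1 library of DAPI-sorted nuclei from frozen kidney sections. Control mice (Ctrl) were Bmal1lox/lox, and mice with a disrupted tubular clock (cKOt) were Bmal1lox/lox/Pax8-rtTA/LC-1. Both genotypes drank doxycycline at 2 mg/ml for 2 weeks from the age of 8 weeks, so the controls carry the floxed alleles and the drug as well. Kidneys were taken at Zeitgeber time 4 (ZT4, light phase, when mice rest) or 16 (ZT16, dark phase, when they are active), and the Pax8 promoter drives Cre along the renal tubule but not in the mesangium, which makes mesangial nuclei cells whose own clock was not targeted, inside a kidney whose tubular clock was.

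Mesangial cells sit between the capillary loops of the glomerulus, hold the loops together, lay down the mesangial matrix and contract in response to vasoactive hormones. They descend from stromal progenitors, as vascular smooth muscle cells, renin-producing juxtaglomerular cells and pericytes do, and they depend on platelet-derived growth factor signalling through Pdgfrb. Integrin alpha 8, the product of Itga8, anchors them to matrix, Gata3 is a transcription factor of these cells, and Piezo2 is a channel opened by mechanical force.

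The libraries held 8919 to 11083 barcodes and 8758 to 10975 QC nuclei, with a median of 3003.5 to 4830 UMIs per QC nucleus. Mesangial nuclei numbered 15 and 29 in the Ctrl ZT4 libraries, 24 and 18 in Ctrl ZT16, 14 and 28 in cKOt ZT4 and 25 and 26 in cKOt ZT16. Their summed UMIs ran from 33956 to 116054 per library, 617432 in all, and the median nucleus of each library had 1986 to 4290 UMIs and 1191 to 1949 genes. A single nucleus supplied 7.98% to 18.8% of a library's mesangial UMIs. A floor of 3 counts, the upper limit that a count of 0 allows, corresponded to 25.9 to 88.4 CPM (UMIs scaled to the same total in every library), so a gene below that level could be missed. No mesangial barcode was mesangial in more than 1 library, 3 of the 179 were also QC barcodes of another library, and 823 of 80565 distinct QC barcodes occurred in more than 1 library. Only 1 of the 1393 barcodes outside QC met the gene rule.

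Most mesangial nuclei only just met the rule. Exactly 3 of the 5 genes were detected in 139 nuclei, 4 in 35 and all 5 in 5, and 1260 further nuclei that passed the exclusions had exactly 2 and stayed outside. Depth did not separate these sets, with a median of 2847 UMIs at 3 genes, 2666 at 4, 2516 at 5 and 2999 just outside. Itga8 was detected in 88.8% of mesangial nuclei, Pdgfrb in 80.4%, Gata3 in 66.5%, Piezo2 in 63.1% and Art3 in 26.3%. In the 1260 nuclei just outside, the shares were 62.1% for Itga8, 64.0% for Pdgfrb, 33.7% for Gata3, 29.9% for Piezo2 and 10.2% for Art3. Proximal tubule nuclei (13281 nuclei with at least 4 of 6 proximal tubule genes, chosen without Pdgfrb, median 5210 UMIs against 2812 in mesangial nuclei) had Piezo2 in 1.6%, Gata3 in 2.54%, Itga8 in 1.85% and Art3 in 0.512%.

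Summed over the mesangial nuclei of a library and divided by that library's mesangial total, Piezo2 (ENSMUSG00000041482) stood at 1208 and 939 CPM in Ctrl ZT4, 653 and 971 in Ctrl ZT16, 927 and 1057 in cKOt ZT4 and 1250.2 and 851 in cKOt ZT16. The 4 groups overlapped. Gata3 ran from 182 to 638 CPM, Itga8 from 504 to 1119.5 CPM, Pdgfrb from 305 to 678 CPM and Art3 from 31.5 to 193 CPM. Pdgfrb had its 2 lowest values in the cKOt ZT16 libraries, and the other genes showed no such order by group. The rule bears on these levels, since a nucleus without a Piezo2 UMI had to meet it with the remaining genes. Pdgfrb was in 98.5% of mesangial nuclei without Piezo2 and in 69.9% of those with it. No difference between groups is therefore read from the rule genes.

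**Figure D1:**
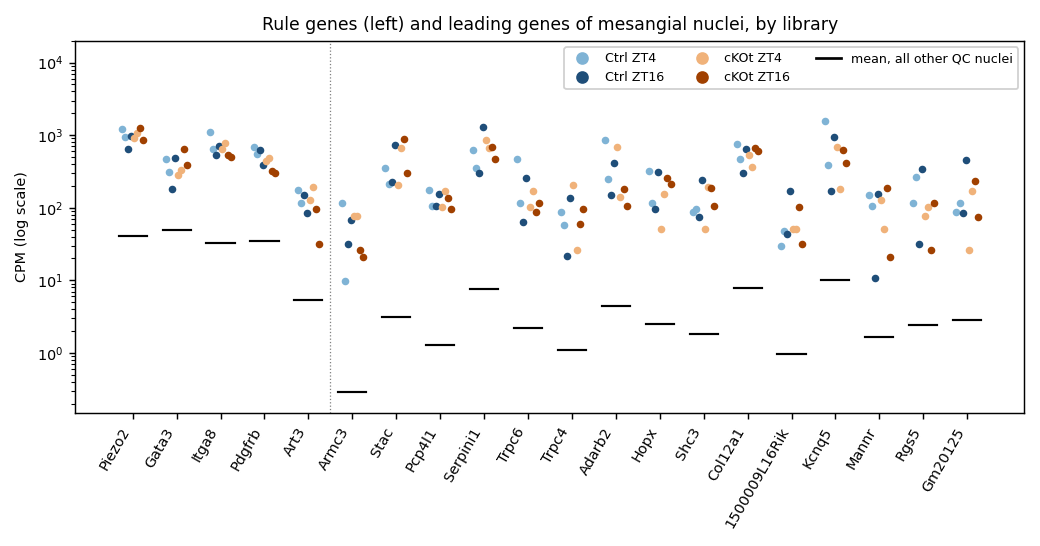
CPM on a log axis for the 5 genes of the rule (left of the dotted line) and for the 15 genes with the highest ratio of mesangial to other QC nuclei, with 1 point per library coloured by group (a library with 0 is not drawn) and a black bar at the mean of all other QC nuclei. Every point drawn is above the bar of its gene.

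The name was set beside 16 further genes known from mesangial cells and not used by the rule. They were listed with earlier results of these data known, so they are no independent check of the name. Of these, 15 had a UMI in mesangial nuclei, 12 had a higher mean CPM there than in all other QC nuclei, and 10 were higher in all 8 libraries. The share of all genes so placed is not given here or for the lists below. Such counts are therefore descriptions and no measure of enrichment. Fhl2, a LIM-domain protein, was detected in 79.3% of mesangial nuclei and 5.83% of proximal tubule nuclei, at 1182 ± 337 CPM (SD, n = 8 libraries). Igfbp5 stood at 1254 ± 537 CPM, Pip5k1b at 950.0 ± 303 CPM and Agtr1a, an angiotensin receptor, at 862 ± 299 CPM. Robo1 was in 50.8% of mesangial nuclei, Daam2 in 59.2%, Serpine2 in 34.1% and Hopx in 29.6%, against 3.58%, 2.76%, 0.858% and 0.309% of proximal tubule nuclei. The shares of these genes in stromal and smooth muscle nuclei are not given here. The values thus set mesangial nuclei apart from proximal tubule nuclei, and not from related stromal or smooth muscle cells. Agtr1a and Pip5k1b are less telling by detection, since 44.3% and 39.1% of proximal tubule nuclei had a UMI of them. Against the name, Postn had no UMI, Des, an intermediate filament gene often used for mesangial cells, had 21 UMIs in 17 nuclei, Thsd7b had 1 UMI, and Plcb4 and Tmem178 were lower than in other QC nuclei in 7 of 8 libraries.

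The mesangial nuclei differed among themselves with the detection of Piezo2. It was found in 113 of them (median 2688 UMIs) and not in 66 (median 2956 UMIs). The most frequent sets of detected rule genes were Piezo2, Gata3, Itga8 and Pdgfrb in 34 nuclei, Itga8, Pdgfrb and Art3 in 33, Gata3, Itga8 and Pdgfrb in 30, and Piezo2, Gata3 and Itga8 in 29. This split was chosen after the values were seen. The differences between the sets and the genes named for them, some of which no rule or list named, are a description with no test. Fits by time or genotype with nuclei with Piezo2 alone were run as alternatives. Their adjusted p values rest on the same choice. A nucleus without a Piezo2 UMI may still contain the transcript, since 1 or a few UMIs decide detection.

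Several genes were detected more often in nuclei with Piezo2 than in the others, some of which were still found in many nuclei without it. The genes named for this split were chosen after their values were seen. Dkk2, a secreted Wnt regulator, was detected in 79.6% of nuclei with Piezo2 and 27.3% of those without. The shares were 67.3% and 13.6% for Dgkb, a diacylglycerol kinase, and 82.3% and 39.4% for Adgrl3, an adhesion receptor. Kcnq5, a potassium channel, stood at 53.1% and 4.55%, Col12a1, a collagen chain, at 59.3% and 10.6%, and Stac, an adaptor protein, at 53.1% and 9.09%. Agtr1a was in 77.9% and 33.3%, and Slc8a1, the sodium-calcium exchanger, in 97.3% and 63.6%. Hopx was in 46.9% of nuclei with Piezo2 and in 0 of the 66 others, as were the lncRNAs Gm20125 (31.0%) and Mannr (29.2%) and the cation channel gene Trpc4 (16.8%).

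Some genes were detected more often in nuclei without Piezo2, and those named here were also found in stromal and smooth muscle nuclei. Adamtsl1 was detected in 77.3% of them and in 19.5% of nuclei with Piezo2, and Cacna1c, a calcium channel of smooth muscle, in 80.3% and 26.5%. Lama2, a laminin chain, stood at 66.7% and 30.1%, Cxcl12 at 48.5% and 10.6%, and Col6a3 at 36.4% and 7.96%. Stromal nuclei outside the rule (2861 nuclei with Pdgfrb and with Ak5 or Smoc2, median 3072 UMIs) had Adamtsl1 in 51.7%, Cacna1c in 61.5% and Lama2 in 90.5%. Smooth muscle and juxtaglomerular nuclei (570 nuclei with at least 3 of 8 such genes, median 3237 UMIs) had Adamtsl1 in 61.8%, Cacna1c in 78.2% and Lama2 in 79.1%. The definitions allow a nucleus to count in both of these sets, so they are not separate references. For the 66 nuclei without Piezo2, these genes therefore do not set a mesangial nucleus apart from a stromal or smooth muscle one. Genes of mural cells (pericytes and smooth muscle) were split in both directions. Myh11 was detected in 2.65% of nuclei with Piezo2 and 21.2% of those without, Tagln in 1.77% and 13.6% and Notch3 in 33.6% and 39.4%, and Kcnj8 was close to equal (9.73% and 9.09%). Detected more often with Piezo2 were Abcc9 (47.8% and 25.8%), Rgs5 (26.5% and 13.6%), Cspg4 (26.5% and 15.2%), Acta2 (22.1% and 12.1%) and Mcam (15.0% and 10.6%). Prkg1 was detected in 94.7% and 95.5% of nuclei with and without Piezo2, at 41.6 and 37.6 UMIs per 10000. Ebf1 and Fhl2 were also detected in most nuclei of both sets, but at 48.7 against 15.8 and 14.1 against 6.05 UMIs per 10000.

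**Figure D2:**
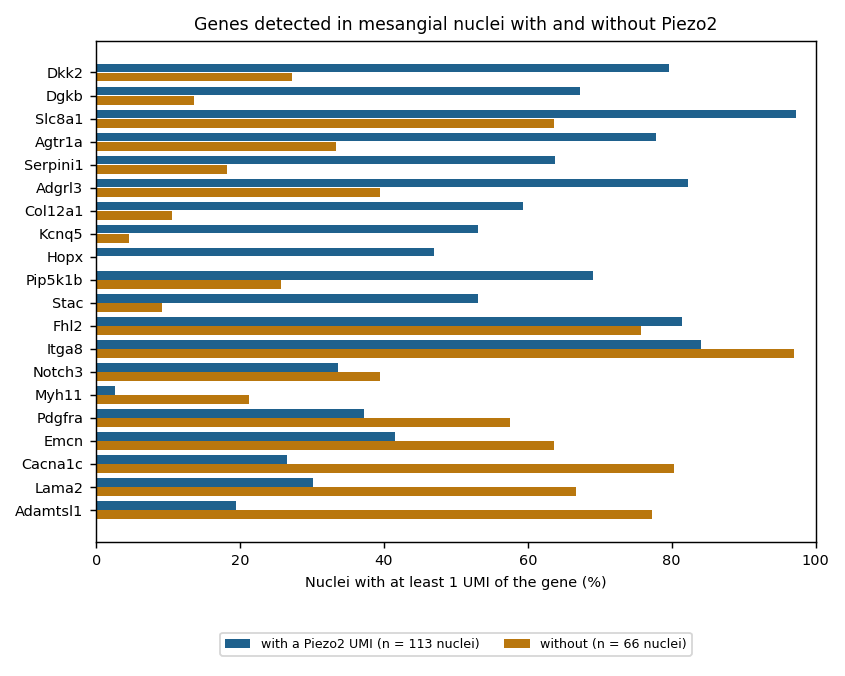
Share of mesangial nuclei with at least 1 UMI of each gene, for the 113 nuclei with a Piezo2 UMI (blue) and the 66 without (brown). Dkk2 to Stac are mostly blue, Fhl2, Itga8 and Notch3 are near equal or tip to brown, and Cacna1c, Lama2 and Adamtsl1 are mostly brown. Itga8 is a gene of the rule, so its shares in the sets depend on the selection.

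The share of mesangial nuclei that held a Piezo2 UMI varied between libraries. It was 60% and 48.3% in Ctrl ZT4, 64.3% and 46.4% in cKOt ZT4, 62.5% and 83.3% in Ctrl ZT16, and 80% and 69.2% in cKOt ZT16. ZT16 libraries lay mostly above ZT4 libraries, and the ranges overlapped between 62.5% and 64.3%. The part of this share in the differences between times was not tested, and in summed counts fewer cells of a type and less RNA per cell cannot be told apart.

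Genes of other cell types were present at levels that varied between libraries. All 13 genes of the smooth muscle and juxtaglomerular list had a UMI and a higher mean CPM than in other QC nuclei, with a summed level of 588 to 2291 CPM per library. Myh11, Acta2, Tagln or Ren1 was detected in 48 mesangial nuclei, 29 of which also held Piezo2, and Ren1, the renin gene, in 8. Among 10 stromal genes, all had a UMI and a higher mean than other QC nuclei but only 1, Pdgfra, in all 8 libraries, and the summed level ran from 477 to 3799 CPM. Of 9 endothelial genes 8 had a UMI, with a summed level of 177 to 824 CPM, and Tie1 had none. Emcn accounted for most of it, in 89 nuclei or 49.7% against 9.71% of proximal tubule, 29.1% of stromal and 42.3% of smooth muscle and juxtaglomerular nuclei. Only 11 of the 89 also had a UMI of Kdr, Pecam1, Cdh5 or Tie1. Podocyte genes summed to 52.5 to 136 CPM, with Nphs1 at 0, and immune genes to 0 to 126 CPM, with 5 of 11 at 0.

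Tubular transcripts were found throughout. Slc34a1, the phosphate transporter of the proximal tubule, had a UMI in 68.7% of mesangial nuclei and in 99.2% of proximal tubule nuclei, at 283 to 1292 CPM against a mean of 2386 CPM in other QC nuclei. All 10 proximal tubule genes had a UMI, and 0 of 10 had a higher mean than in other QC nuclei. Slc12a1, of the thick ascending limb, had 436 UMIs, 268 of them in 5 nuclei with 10 or more. Without these 5, mesangial nuclei at ZT16 went from 93 to 88 and at ZT4 stayed at 86. All 5 thus came from ZT16 libraries. By genotype, Ctrl went from 86 to 85 and cKOt from 93 to 89. The 13 genes of the distal tubule list summed to 3041 to 5833 CPM at ZT4 and 3189 to 12643 CPM at ZT16. Most of this sum was Slc8a1, at 2422 to 9559 CPM, which was also among the genes detected more often with Piezo2, so the sum is no measure of tubular RNA. It was the only gene of the list with a higher mean than in other QC nuclei, Slc12a1 came next at 692 ± 659 CPM, and Slc4a1 had no UMI. Part of the UMIs in any mesangial nucleus can thus be RNA of other cells, and how much of a given gene's level this makes up was not tested.

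Setting aside the 5 genes of the rule, 573 genes reached 50 CPM in mesangial nuclei and were higher there than in all other QC nuclei in all 8 libraries, and 23 of them were lncRNAs. The 15 with the highest ratio of mean CPM included several ion channel and signalling genes. Stac stood at 447 ± 270 CPM against 3.11 in other QC nuclei (ratio 144), and Serpini1, the protease inhibitor neuroserpin, at 657 ± 322 CPM against 7.62 (ratio 86.2). Kcnq5 was at 623 ± 462 CPM (ratio 62.2) and Col12a1 at 545 ± 159 CPM (ratio 70.7). The cation channel genes Trpc6 and Trpc4 had ratios of 79.1 and 78.7. Armc3 had the highest ratio, 184, but rested on 26 UMIs in 20 nuclei. Rgs5, which dampens G-protein signalling in pericytes and mural cells, had a ratio of 56.1. Pcp4l1 (102), Adarb2 (77.7), Hopx (75.0), Shc3 (72.4), 1500009L16Rik (69.4), Mannr (60.6) and Gm20125 (55.1) completed the 15 by ratio. The ratios are to all other QC nuclei together, so they do not set these genes apart from stromal or smooth muscle nuclei.

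Long non-coding RNAs took 13.5% of UMIs in mesangial nuclei and 16.0% in other QC nuclei. Of 15991 genes with a UMI in mesangial nuclei, 2350 were lncRNAs, and 127 lncRNAs were in at least 10% of the nuclei, against 5126 protein-coding genes. The lncRNAs 4930511M06Rik and Carmn were chosen after their values were seen. 4930511M06Rik was detected in 50.3% of mesangial nuclei and 4.89% of proximal tubule nuclei, at 707 and 484 CPM in Ctrl ZT4, 246 and 988 in Ctrl ZT16, 824 and 348 in cKOt ZT4 and 1043 and 473 in cKOt ZT16. Within each group its 2 libraries differed by more than the groups did. It was also in 25.3% of smooth muscle and juxtaglomerular nuclei. Carmn, a lncRNA known from smooth muscle, was in 52.0% of mesangial nuclei, at 403 ± 250 CPM, and in 65.5% of stromal and 82.1% of smooth muscle and juxtaglomerular nuclei. Mannr was in 18.4% of mesangial nuclei, in 1.75% of smooth muscle and juxtaglomerular nuclei and in 0.21% of stromal nuclei.

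The 37 contraction genes summed to 12444 to 27045 CPM per library, beside 15580 to 21094 CPM for the 46 transcription factors. Of the 37, 30 were in at least 10% of mesangial nuclei, 35 had a higher mean CPM than other QC nuclei and 23 were higher in all 8 libraries. Prkg1, the cyclic GMP-dependent kinase, was in 170 of 179 nuclei at 4320 ± 1320 CPM. Pde3a, a cyclic nucleotide phosphodiesterase, was at 1911 ± 424 CPM, the actin-binding Cald1 at 1669 ± 621 CPM, and Itpr1, the inositol trisphosphate receptor, at 1652 ± 237 CPM. Itpr1 differed little from other QC nuclei (ratio 1.23), while Pde3a was higher by a ratio of 12.9.

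Among receptors and enzymes for vasoactive signals were the soluble guanylate cyclase subunits Gucy1a2 (876 ± 443 CPM), Gucy1a1 (261 ± 76.1 CPM) and Gucy1b1 (158 ± 55.9 CPM), which respond to nitric oxide. The endothelin receptor Ednra was in 31.3% of mesangial nuclei at 199 ± 122 CPM and in 0.557% of proximal tubule nuclei. In all, 21 of 33 genes of this list had a higher mean than other QC nuclei, 6 of them in all 8 libraries. Among 44 growth factor genes 29 were higher, 15 in all 8 libraries. Nrp1, a co-receptor, stood at 1897 ± 589 CPM, Igfbp7 at 1275 ± 145 CPM, and Pdgfd, a ligand of Pdgfrb, at 620 ± 249 CPM. Igf1r was at 876 ± 182 CPM and was lower than in other QC nuclei in 7 of 8 libraries.

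Matrix genes were all detected, 36 of 36, and 27 had a higher mean CPM than other QC nuclei, 9 in all 8 libraries. The type IV collagen chains Col4a3 (658 ± 148 CPM) and Col4a4 (479 ± 144 CPM) were lower than in other QC nuclei in all 8 libraries, and Col4a5 (404 ± 161 CPM) was higher in all 8. Of 22 adhesion genes 16 were higher, with Itga1 at 701 ± 136 CPM and Vcl, vinculin, at 465 ± 166 CPM. Of 46 transcription factors 38 were higher, with Ebf1 at 3709 ± 938 CPM (ratio 9.37), Zeb2 at 1704 ± 497 CPM and Meis2 at 1637 ± 172 CPM. Among 16 immediate early genes, 12 had a UMI and Egr1 stood at 206 ± 163 CPM with its highest value, 560 CPM, in 1 Ctrl ZT4 library. Of 12 glucocorticoid-responsive genes, Zbtb16 reached 678 and 644 CPM in replicate 1 of Ctrl ZT4 and of cKOt ZT4 and lay between 52.5 and 206 CPM in the other 6 libraries. Heat and cold shock genes were near the level of other nuclei, 7 of 13 above it and 0 of 13 in all 8 libraries.

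The first comparison asked whether mesangial nuclei made up a different share of the kidney's nuclei with genotype or time. They made up 0.152% and 0.291% of QC nuclei in Ctrl ZT4, 0.225% and 0.168% in Ctrl ZT16, 0.135% and 0.279% in cKOt ZT4 and 0.285% and 0.237% in cKOt ZT16. The exact binomial 95% intervals, which cover counting error only, overlapped for all libraries. The lowest and the highest share were both found at ZT4. The share was 0.234% ± 0.0696 in cKOt and 0.209% ± 0.0632 in Ctrl (SD, n = 4 libraries each), a difference of 0.0253 percentage points (two-sided exact permutation test, p = 0.657, adjusted over 2 comparisons 0.8). Within ZT4 the difference was -0.0141 and within ZT16 0.0647. For ZT16 against ZT4 the shares were 0.229% ± 0.0484 and 0.214% ± 0.0823, a difference of 0.0147 percentage points (exact permutation p = 0.8, adjusted 0.8), with -0.0247 within Ctrl and 0.0541 within cKOt. The smallest p that 4 libraries against 4 allow is 0.0286. Thinned to 1500 UMIs per nucleus both differences changed sign, and the time difference also changed sign without any 1 of 3 libraries (replicate 1 of Ctrl ZT4, cKOt ZT4 or cKOt ZT16). With the 113 nuclei with Piezo2 alone, a choice made after the values were seen and given with no test, the mean share at ZT16 was higher by 0.0563 percentage points.

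**Figure D3:**
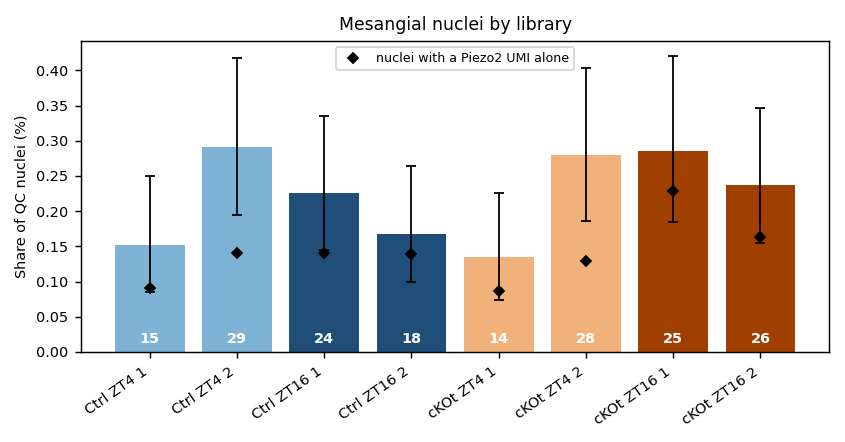
Share of QC nuclei that were mesangial in each library (bars, in percent, with exact 95% binomial intervals and the number of nuclei at the foot) and the share that also held a Piezo2 UMI (diamonds). Bars run from 0.135% to 0.291% and the groups overlap.

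The second comparison set ZT16 against ZT4 to ask what time of day changed in these nuclei. No gene passed an adjusted p of 0.05 among 3951 genes tested over both genotypes (0% called by edgeR, with 273 genes at an unadjusted p under 0.05 and 1 gene called by DESeq2). The median standard error of a log2 fold change was 0.47, so only large changes could have passed. Within Ctrl 0 of 2675 genes were called (153 unadjusted, 0 by DESeq2), and within cKOt 0 of 3673 (234 unadjusted, 1 by DESeq2). The count over both genotypes depended on single libraries, rising to 13 without Ctrl ZT16 replicate 2, 11 without Ctrl ZT16 replicate 1, 5 without cKOt ZT16 replicate 2 and 1 without cKOt ZT4 replicate 2. Leaving out a library leaves its group with 1 sample, which is then assumed to vary like the other groups. The count was 22 with no filter on low counts, and 13 within Ctrl and 13 within cKOt. With only the libraries of the groups compared it was 24 within cKOt and 0 within Ctrl. Without nuclei with podocyte, endothelial or immune genes it was 13 over both genotypes, 4 within cKOt and 0 within Ctrl. Within Ctrl it rose to 12 without Ctrl ZT16 replicate 2 and 2 without Ctrl ZT16 replicate 1, and within cKOt to 2 without cKOt ZT4 replicate 2 and 1 without cKOt ZT16 replicate 2.

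All 20 genes of the clock list had a UMI, and 8 had enough counts to be tested over both genotypes, of which 0 passed. Of these 8, Nr1d2 and Per2 had values by time that did not overlap. Nr1d2 had 5 or more counts in both libraries of a group only at ZT4, and Per2 only at ZT16. Each thus entered the test through the time at which it was high, so the separation is given as a description. Nr1d2 encodes REV-ERB beta, a repressor of Arntl whose transcript peaks in the light phase in many tissues. It stood at 177 and 184 CPM in Ctrl ZT4, 154 and 77.3 in cKOt ZT4, 32.1 and 17.0 in Ctrl ZT16 and 34.5 and 21.0 in cKOt ZT16. Every ZT4 library lay above every ZT16 library, a pattern that 1.49% of all tested genes showed in this direction. The log2 fold change was -2.32 (SE 0.51, edgeR adjusted p = 0.184), resting on 47 UMIs in 32 nuclei. The times overlapped with nuclei with Piezo2 alone, with 42.0 CPM in the lowest ZT4 library and 49.7 CPM in the highest ZT16 library.

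Per2, a period gene that represses the clock's activators, ran the other way. It stood at 29.5 and 19.4 CPM in Ctrl ZT4, 51.5 and 12.9 in cKOt ZT4, 128 and 119 in Ctrl ZT16 and 112 and 105 in cKOt ZT16. All ZT16 libraries lay above all ZT4 libraries, as 2.71% of tested genes did in this direction, with a log2 fold change of 2.16 (SE 0.55, edgeR adjusted p = 0.27) from 48 UMIs in 39 nuclei. The ZT4 libraries held 1 or 2 UMIs of Per2 each. In the alternative analyses Nr1d2 stayed between -2.62 and -2.05 and Per2 between 1.62 and 2.69, and neither passed in any alternative in which it could be tested.

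Over all mesangial nuclei, the clock genes named next had values that overlapped between the times. Rora, a nuclear receptor that activates Arntl, was in 92.2% of mesangial nuclei at 2582 ± 977 CPM, higher than in other QC nuclei in all 8 libraries, with a log2 fold change of -0.59 at ZT16 (SE 0.32, edgeR adjusted p = 0.751). Clock stood at 201 ± 53.6 CPM (log2 fold change -0.19, SE 0.32). Hlf was at 147 ± 83.0 CPM (log2 fold change -0.60) and Tef at 115 ± 69.5 CPM (log2 fold change -0.95). Nr1d1, the paralogue of Nr1d2, had UMIs in 3 of 4 ZT4 libraries (48.4, 51.5 and 51.5 CPM) and in 0 of 4 ZT16 libraries, 11 UMIs in all, too few to be tested. Dbp had 8 UMIs, Cry1 9 and Nfil3 4. Per3, a period gene, had 27 UMIs and overlapped between the times (38.7 to 77.2 CPM at ZT4 and 25.9 to 52.5 CPM at ZT16). With nuclei with Piezo2 alone it stood at 100 to 126 CPM in ZT4 and 23.6 to 43.7 CPM in ZT16 libraries, each from 2 to 4 UMIs. These values are a description, since Per3 had too few UMIs to be tested there and the share of all genes so separated in these nuclei was not computed. In the same nuclei Npas2 had a log2 fold change of 3.26 (SE 1.15, edgeR adjusted p = 0.448). Its UMIs were 0 and 0 in Ctrl ZT4, 8 and 2 in Ctrl ZT16, 3 and 0 in cKOt ZT4 and 14 and 9 in cKOt ZT16. Of 7 clock genes tested there, 5 had an unadjusted p under 0.05 and 0 were called, beside 243 and 0 of 2917 genes. Arntl, Npas2 and Per2 entered this test only through ZT16 libraries and Nr1d2 only through Ctrl ZT4, where each was high. These counts are therefore a description and no measure of a clock effect.

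Arntl, the gene also called Bmal1, was counted at 58.9 and 58.1 CPM in Ctrl ZT4, 118 and 34.1 in Ctrl ZT16, 0 and 64.4 in cKOt ZT4 and 207 and 126 in cKOt ZT16. The times overlapped over both genotypes (log2 fold change 1.19, SE 0.58, edgeR adjusted p = 0.716). Within cKOt both ZT16 libraries lay above both ZT4 libraries, as 27.4% of tested genes did (log2 fold change 1.88, SE 0.78, edgeR adjusted p = 0.756). Arntl entered this test only through ZT16, where it was high, so the separation is given as a description. With nuclei with Piezo2 alone the UMIs were 1 and 1 in Ctrl ZT4, 5 and 0 in Ctrl ZT16, 0 and 0 in cKOt ZT4 and 20 and 12 in cKOt ZT16, and over both genotypes the log2 fold change was 3.34 (SE 1.25, edgeR adjusted p = 0.472), a value that rests on 1 UMI in each of the Ctrl ZT4 libraries and none in the cKOt ZT4 libraries. In proximal tubule nuclei of the same libraries Arntl was at 10.4 and 10.8 CPM in Ctrl ZT4, 176 and 181 in Ctrl ZT16, 249 and 173 in cKOt ZT4 and 271 and 236 in cKOt ZT16. Tags from the 3' end of a transcript need not lie in the floxed part, so these counts are no check of the deletion in either cell type.

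**Figure D4:**
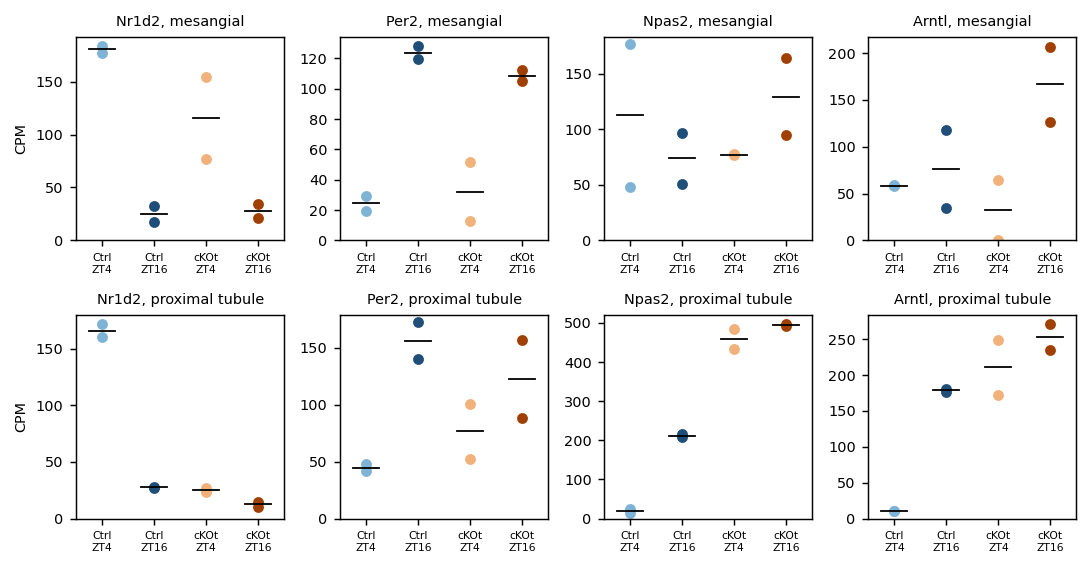
CPM of Nr1d2, Per2, Npas2 and Arntl in mesangial nuclei (top) and proximal tubule nuclei (bottom), 1 point per library and a bar at the mean of the 2 libraries of a group, each panel with its own linear axis. In mesangial nuclei Nr1d2 is higher at ZT4 than at ZT16 in both genotypes and Per2 is higher at ZT16 in both. In proximal tubule nuclei Nr1d2 is high in Ctrl ZT4 alone. The difference between the cell types in the Nr1d2 genotype effect at ZT4 did not pass the test. It was -0.36 on the log2 scale with nuclei with Piezo2 alone.

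The genes with the smallest p for time were genes of few nuclei, and were chosen after their values were seen. Myh11, the smooth muscle myosin heavy chain, had 24 and 55 UMIs in Ctrl ZT4, 19 and 13 in cKOt ZT4, 0 and 7 in Ctrl ZT16 and 0 and 4 in cKOt ZT16 (log2 fold change -3.76, SE 0.65, edgeR adjusted p = 0.0936). These UMIs came from 14 of 86 nuclei at ZT4 and 3 of 93 at ZT16. Myh11 entered the test only through ZT4, the time at which it was high, so its values are a description. Kcnab1, a potassium channel subunit, had a log2 fold change of -2.48 (edgeR adjusted p = 0.116) and took 54 of its UMIs from 1 nucleus. Among the 113 nuclei with Piezo2 its log2 fold change was 0.88. Hpse2 (-2.91) and Kcnma1 (-3.14, a calcium-activated potassium channel of smooth muscle) also had negative log2 fold changes, with edgeR adjusted p of 0.166 and 0.174. Hpse2 was found in 17 nuclei and Kcnma1 in 21. Across 15 to 18 alternative analyses the adjusted p of these 4 genes ran from 5.47e-10 to 1.0 for Myh11, 2.82e-07 to 0.816 for Kcnab1, 2.15e-07 to 1.0 for Hpse2 and 0.000256 to 0.544 for Kcnma1.

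Contraction genes had mostly lower values at ZT16, without any passing the test. Of 32 tested members 27 were lower and 5 higher, with 9 at an unadjusted p under 0.05 and 0 called, and their median log2 fold change was -0.55 against 0.04 over all tested genes. Dmd, dystrophin, had -1.14 (SE 0.39, edgeR adjusted p = 0.523), Cacna1c -0.75 (SE 0.32, adjusted p = 0.645) and Itpr2, in the other direction, 0.94 (SE 0.36, adjusted p = 0.619), all 3 chosen after their values were seen. Dmd and Cacna1c turned direction with the choice of nuclei. Dmd was 0.78 without the nuclei described next and 1.83 with nuclei with Piezo2 alone, Cacna1c was -0.04 and 0.90, and Itpr2 was 1.60 and 1.39 (lowest of these adjusted p 0.35, edgeR). Without the 48 nuclei with Myh11, Acta2, Tagln or Ren1, 24 members could be tested and the median was -0.13, against 0.05 over all genes. With the 113 nuclei with Piezo2 alone, 25 could be tested, 13 higher and 12 lower, with a median of 0.04 against 0.11. The 6 tested smooth muscle and juxtaglomerular genes had a median of -0.55 in the full set, and 2 of them lay lower in every ZT16 library than in any ZT4 library, as 1.49% of all tested genes did. Without the 48 nuclei, which were picked by genes of this list, the median was 0.11 (4 tested). It was -0.30 with nuclei with Piezo2 alone (4 tested). The summed level of that marker list was 1288 to 2291 CPM at ZT4 and 588 to 1474 CPM at ZT16.

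**Figure D5:**
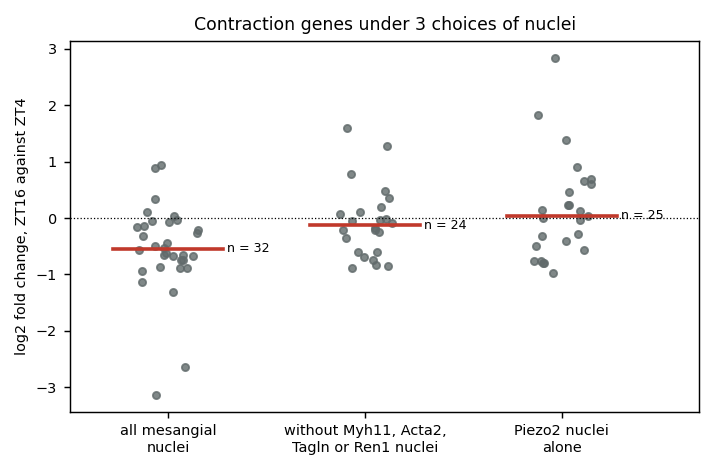
log2 fold change of each tested contraction gene at ZT16 against ZT4 (points, with the median in red) for all mesangial nuclei, for those without Myh11, Acta2, Tagln or Ren1 and for those with Piezo2. The median moves from -0.55 to -0.13 and 0.04, with 32, 24 and 25 genes.

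Matrix genes by time had a median log2 fold change of 0.05 (27 tested, 14 higher and 13 lower), adhesion genes -0.20 (16 tested), growth factor genes -0.21 (31 tested) and transcription factors -0.14 (29 tested). The 11 tested genes among the further mesangial genes had a median of -0.19. Vasoactive genes had -0.36 over 9 tested members and glucocorticoid-responsive genes -0.35 over 5. The vasoactive median turned to 0.09 without nuclei with smooth muscle or juxtaglomerular genes (6 tested, 4 higher) and was -0.03 with nuclei with Piezo2 alone, and the growth factor median turned to 0.06 with nuclei with Piezo2 alone (26 tested, 14 higher). Among the lists for other cell types, 5 tested stromal genes had -0.53, 6 proximal tubule genes 0.31 and 4 distal tubule genes, Slc8a1 among them, 0.99 (all 4 higher at ZT16, 2 at an unadjusted p under 0.05). The nuclei with 10 or more Slc12a1 UMIs all lay at ZT16, and their part in the distal tubule median was not tested. With nuclei with Piezo2 alone the distal tubule median was 0.33 and that of the stromal genes 0.76 (2 tested). No member of these lists was called.

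The third comparison asked whether a clock disrupted in the tubule altered mesangial nuclei. No gene was called for cKOt against Ctrl at ZT4 among 2174 tested (0% called by edgeR, 72 at an unadjusted p under 0.05, 0 by DESeq2). At ZT16 it was 0 of 3795 (206 unadjusted, 0 by DESeq2), rising to 13 without Ctrl ZT16 replicate 2 and 3 without Ctrl ZT16 replicate 1. The time effect in cKOt minus that in Ctrl was called for 0 of 3951 genes (176 unadjusted, 0 by DESeq2), with 1 gene called without Ctrl ZT16 replicate 2. The median standard errors were 0.55, 0.60 and 0.94 on the log2 scale. By list, matrix genes had a median log2 fold change of -0.40 at ZT4 (17 tested, 12 lower) and -0.25 at ZT16 (27 tested, 19 lower), against 0.01 and -0.01 over all genes. The matrix median at ZT4 was -0.07 with nuclei with Piezo2 alone (8 tested, 4 lower) and -0.66 without nuclei with smooth muscle or juxtaglomerular genes (13 tested, 9 lower), and at ZT16 it was -0.33 and -0.53. Vasoactive genes had -0.86 at ZT4 (6 tested, 5 lower) and 0.21 at ZT16 (8 tested), and -0.20 at ZT4 with nuclei with Piezo2 alone (3 tested, 2 lower). At ZT16 glucocorticoid-responsive genes had -0.75 (5 tested), and of the lists for other cells 4 stromal genes had -0.72 and 4 distal tubule genes, Slc8a1 among them, -0.96. At ZT4 the medians were -0.14 for glucocorticoid-responsive genes (4 tested), 0.07 for stromal genes (4 tested) and -0.23 for distal tubule genes (3 tested). With nuclei with Piezo2 alone the distal tubule median at ZT16 was 0.19. Contraction genes had -0.22 (28 tested) and -0.03 (29 tested), transcription factors -0.05 (26 tested) and -0.18 (28 tested), and growth factor genes -0.25 (25 tested) and -0.03 (30 tested). The contraction medians turned, with nuclei with Piezo2 alone, to 0.02 (15 tested, 8 higher) and 0.06 (25 tested, 14 higher), and the growth factor medians to 0.03 (13 tested, 7 higher) and 0.01 (25 tested, 13 higher).

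Clock genes in mesangial nuclei did not pass between the genotypes. At ZT4, Nr1d2 had a log2 fold change of -0.76 (SE 0.58, edgeR adjusted p = 0.988), both cKOt libraries lying below both Ctrl libraries, as 16.4% of tested genes did. With nuclei with Piezo2 alone it was -2.34 (SE 0.95, edgeR adjusted p = 0.661), where Nr1d2 entered the test only through Ctrl, in which it was high. Clock had 0.76 (SE 0.42, adjusted p = 0.988) and Npas2, which pairs with Arntl as Clock does, -0.17 (SE 0.76, adjusted p = 0.989). At ZT16, Arntl had 0.93 (SE 0.64, adjusted p = 0.978), with both cKOt libraries above both Ctrl libraries, as 21.4% of tested genes were. Arntl entered this test only through cKOt, where it was high, so this order is a description. Per2 had -0.27 (SE 0.52) and Rora -0.43 (SE 0.45), both with an adjusted p of 0.997.

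In proximal tubule nuclei, where Cre was driven, the same fit called 70 genes higher and 40 lower in cKOt at ZT4, and 11 higher and 18 lower at ZT16, with a median standard error of 0.26. Their 81232149 UMIs against 617432 set the precision apart, so counts of calls do not compare the 2 cell types. The difference between the cell types was therefore tested itself. For the genotype effect at ZT4, proximal tubule minus mesangial, edgeR called 0 of 2166 genes (107 at an unadjusted p under 0.05, 2 by DESeq2). For the genotype effect at ZT16 it called 0 of 3779 (215 unadjusted, 0 by DESeq2), rising to 15 without Ctrl ZT16 replicate 2 and to 1 without Ctrl ZT16 replicate 1 or either Ctrl ZT4 library. For the time effect in cKOt it called 0 of 3660 (245 unadjusted, 0 by DESeq2), rising to 5 without either Ctrl ZT16 library and to 1 without cKOt ZT4 replicate 2.

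Npas2 had the smallest p in the first of these. In proximal tubule nuclei it stood at 15.1 and 24.3 CPM in Ctrl ZT4 and 485 and 433 CPM in cKOt ZT4. In mesangial nuclei it stood at 177 and 48.4 CPM in Ctrl ZT4 and 77.2 and 77.3 CPM in cKOt ZT4. The genotype effect in proximal tubule nuclei minus that in mesangial nuclei was 4.56 on the log2 scale (SE 0.84, edgeR adjusted p = 0.183), and over the alternatives 3.36 to 5.96, with an adjusted p of 0.000719 to 0.881. The mesangial value rests on 11 UMIs in Ctrl ZT4, none of which lay in nuclei with Piezo2.

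Nr1d2 at ZT4 was 172 and 159.8 CPM in Ctrl and 23.4 and 27.1 CPM in cKOt in proximal tubule nuclei, against 177 and 184 CPM and 154 and 77.3 CPM in mesangial nuclei. Both mesangial libraries lay above both proximal tubule libraries in Ctrl as well as in cKOt, and the share of all genes so placed is not given here. The difference of the genotype effects was -1.96 (SE 0.64, edgeR adjusted p = 0.764) and missed the threshold. Among nuclei with Piezo2 it was -0.36 (adjusted p = 0.954), where Nr1d2 had 6 and 10 UMIs in the Ctrl ZT4 libraries and 1 and 2 in the cKOt ZT4 libraries. The Nr1d2 UMIs of cKOt ZT4 thus lay mostly in the nuclei without Piezo2. For the time effect in cKOt, Nr1d2 differed between the cell types by 0.89 (SE 0.77) and Per2 by -1.21 (SE 0.81), with adjusted p of 0.882 and 0.829.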

How the data were processed

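The authors sorted nuclei, prepared 10x 3' v3.1 libraries and deposited UMI counts per gene and barcode; the submitters' processing notes name bcl2fastq 2.20, Cell Ranger 7.1.0, Seurat 5 and GRCm39, while the methods name an mm10 reference, with intron counting not given in the sources used here. Counts were read as deposited, 1 matrix per library. Mitochondrial genes were used for QC and left out of totals for CPM and tests; 590 genes without a match in the annotation have no biotype.

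UMIs of mesangial nuclei were summed per library (1 mouse, the replicate) and fitted across all groups with edgeR 4.0.16 (TMM, quasi-likelihood test, Benjamini-Hochberg adjustment over all genes tested, threshold 0.05), keeping a gene where the pair of libraries of any compared group had 5 or more counts each. The script was tested on simulated data. Proximal tubule and mesangial sums were compared in 1 model with the library as block. DESeq2 1.42.0, other filters, other memberships and leaving out each library were alternatives. No doublet caller was run. Alternatives left out nuclei with genes of other cells or in the top 5% of UMIs. The alternative without nuclei with podocyte, endothelial or immune genes kept 85 of 179 mesangial nuclei. It counted an Emcn UMI as endothelial, and 89 mesangial nuclei had one. Shares were compared by exact permutation tests.

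Genes named in the text are the genes of the rule, the further mesangial genes, the clock list, up to 4 members per list with the highest mean CPM, and the 15 genes with the highest ratio to other QC nuclei; others are said to be chosen after their values were seen. Some genes of these lists are not reported here. Members and lists were chosen with earlier results of these data known. The libraries are separate mice per the labels, 2 per group, and this number and the depth limit the precision.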

Additional observations from a re-analysis of the deposited data

How the results depend on the processing

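Of 203 alternative values of the shares and counts of called genes, 158 kept their direction or count, 39 moved and 6 changed sign; of 195 alternative values for Nr1d2, Per2, Npas2, Myh11, Kcnab1, Hpse2 and Kcnma1, 173 were unchanged in direction and side of the threshold, 21 passed it under the alternative and 1 changed sign (Kcnab1 over both genotypes, 0.88 with nuclei with Piezo2 alone). Among contraction genes named for time, Dmd and Cacna1c also changed sign, to 1.83 and 0.90 with nuclei with Piezo2 alone, and Dmd to 0.78 without nuclei with smooth muscle or juxtaglomerular genes. The cause of these moves was not tested. The cKOt difference in share was -0.00423 when nuclei were thinned to 1500 UMIs (3534 Ctrl and 3068 cKOt QC nuclei left out as shallower) and ran from 0.00624 to 0.0584 without single libraries. The time difference in share was -0.0103 thinned to 1500 UMIs (3777 ZT4 and 2825 ZT16 nuclei left out), -0.0106 without nuclei with podocyte, endothelial or immune genes, and -0.0117 to 0.0402 without single libraries, with -0.00619 without Ctrl ZT4 replicate 1, -0.0117 without cKOt ZT4 replicate 1 and -0.0042 without cKOt ZT16 replicate 1.

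Over both genotypes the count of genes called by time was 1 with DESeq2, 22 with no filter, 1 with at least 4 of the 5 rule genes, 13 without nuclei with podocyte, endothelial or immune genes, 1 without the top 5% of UMIs and 0 to 13 without single libraries. Within Ctrl it was 13 with no filter and 0 to 12 without single libraries. Within cKOt it was 1 with DESeq2, 13 with no filter, 24 with only the libraries compared, 1 with at least 4 rule genes, 4 without nuclei with podocyte, endothelial or immune genes and 0 to 2 without single libraries. For cKOt against Ctrl it was 0 to 0 without single libraries at ZT4, and 8 with no filter and 0 to 13 without single libraries at ZT16; for the interaction it was 0 to 1 without single libraries. For proximal tubule minus mesangial nuclei, the time effect in cKOt gave 5 with no filter, 1 with at least 4 rule genes and 0 to 5 without single libraries, the genotype effect at ZT4 gave 2 with DESeq2, 4 with no filter, 1 with nuclei with Piezo2 alone and 0 to 1 without single libraries, and the genotype effect at ZT16 gave 3 with no filter, 1 with at least 4 rule genes and 0 to 15 without single libraries.

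Same-numbered libraries did not deviate together (correlations of deviations from group means -0.106 to 0.115 over 3951 genes), so replicate numbers were not taken as pairs. With the replicate block 0 genes were called in all 6 contrasts within mesangial nuclei; for the genotype effect at ZT4, proximal tubule minus mesangial, the replicate block in place of the library block gave 1 called gene. The choice of nuclei with Piezo2 alone and the removal of nuclei with 10 or more Slc12a1 UMIs were added after seeing the data. With 14 to 29 nuclei per library, a gene under 25.9 to 88.4 CPM could be missed.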
